A study of Homo sapiens with 6 samples.

Results

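The regions described here were the binding sites of monomeric wild-type (WT) hnRNP A1 that the double mutant also occupied. Clusters of the 2 WT monomer libraries were merged by strand wherever they shared at least 1 nucleotide, which gave 10574 A1 regions. A region counted as kept when a cluster of either A1dm library overlapped it on the same strand. This held for 380 of the 10574 regions, or 3.59%. Because the members were chosen by the A1dm clusters, their overlap with A1dm is the rule and not a result. The 10194 A1 regions without an A1dm cluster are called other regions below.

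PAR-CLIP was run on HEK293T, a human embryonic kidney line, after transient transfection with myc-tagged hnRNP A1 and growth with 4-thiouridine (4-SU). RNA was recovered with an anti-myc antibody from 3 protein bands, with 2 libraries per band: the WT monomer (A1), the slower WT band labeled as dimeric (A1-HMW) and the monomer of A1dm, which carries R75D/R88D. The study describes its replicates as independent experiments, and transfected cells also hold their own hnRNP A1, which has no tag. The deposited lists held 5805 and 8100 clusters in A1, 671 and 865 in A1-HMW, and 232 and 596 in A1dm, with no number of reads for any of them.

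hnRNP A1 is an abundant nuclear RNA binding protein with a tandem pair of RNA recognition motifs, RRM1 and RRM2, followed by a disordered, glycine-rich tail. It is best known for holding back splice sites in pre-mRNA, and it also shuttles to the cytoplasm and takes part in translation and stress granules. Arg75 and Arg88 form salt bridges between the tandem RRMs, so A1dm tests sites bound without that contact. In PAR-CLIP, ultraviolet light links 4-SU in the RNA to the bound protein, and the linked T is later read as C, which marks the site within a short cluster.

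The first sequences shown are those of members found in all 6 libraries, that is in both replicates of A1, A1-HMW and A1dm. There were 8 such members, and 7 are given here. Each is the reference sequence of the A1 region on its own strand in build GRCh37 (hg19), 5′ to 3′, with the longest unbroken run of purines in capitals.
UCHL5, chr1:193016906-193016928, minus strand, intron: gatGGAAAAGAAGAGGAAAAGGc
KIF14, chr1:200550713-200550737, minus strand, intron: gaaatGAGGAAGAAAGAAAAAAGAc
SUPT16H, chr14:21819963-21819986, minus strand, 3′ UTR: atGAGAAAAGAGAAGAGGAAGGGA
CUL3, chr2:225375527-225375550, minus strand, intron: gaatGGAAAAGGAGGAAGGAGGAG
SNRPD3, chr22:24954660-24954685, plus strand, intron: aatGAGAGGGGAAAGGAAGGAGGAtt
EIF4G1, chr3:184039798-184039821, plus strand, coding exon: agtGAGAAAGGAGGAGAGGAActg
IQCB1, chr3:121549571-121549595, minus strand, intron: aggtGAAAGGAGGAGAGGAGGAAGt

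These 7 held a run of 18 to 22 purines with a T at one or both edges. UCHL5 encodes a deubiquitinase of the proteasome, CUL3 the scaffold of a family of ubiquitin ligases and KIF14 a mitotic kinesin. SUPT16H codes for part of FACT, a histone chaperone, SNRPD3 a core Sm protein of the spliceosome and EIF4G1 the scaffold of the cap-binding complex. IQCB1 encodes a protein of the cilium. In KIF14 the cluster ran from 200550713 to 200550737 in every library. In UCHL5 it covered 22 nt in A1 replicate 2 and 23 nt, from 193016906 to 193016928, in the other 5 libraries.

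A further 11 members were also called in both A1 and both A1dm libraries, which brought that set to 19 of 380. They are shown in part because they add coding exons to the one above, together with sites outside genes.
MKI67, chr10:129910503-129910523, minus strand, coding exon: AAGAGAGGAGGGAGAAAGAGt
HSP90AA1, chr14:102549445-102549470, minus strand, coding exon: agaggatGAAGAAGAGAAAAAGAAGc
CCDC13, chr3:42799726-42799751, minus strand, coding exon: gatGGAGAAAAAGAGGGAAAAAGAAc
DYRK1A, chr21:38753567-38753590, plus strand, intron: tGAGGAAAAAGGAAAAGAtgaagt
IL11RA, chr9:34653527-34653548, plus strand, intron: gaggagtGAAAAGAGGGGGAGt
intergenic, opposite strand of NUP210L, chr1:153999693-153999713, plus strand: GAGGAGGAAAGAAAGAAGAGt
intergenic, chr6:44079677-44079701, minus strand: gactGGAAAGGGGAAAGAGGGAAAc
intergenic, chr11:6449425-6449443, plus strand: GGGccatagcgcagtttgg

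MKI67 encodes Ki-67, a coat protein of mitotic chromosomes, HSP90AA1 a stress-inducible chaperone and DYRK1A a protein kinase. IL11RA is the receptor for interleukin 11. The rest were RPLP2, a stalk protein of the large ribosomal subunit, in a coding exon, MED15, a Mediator subunit, in an intron, and a site opposite ABI3BP. The intergenic site on chromosome 11 stood apart: its longest purine run was 3 nt, and 57.9% of its bases were A or G. Of the 19, 5 had a cluster in 1 A1-HMW library. In IL11RA, DYRK1A, MKI67, HSP90AA1, CCDC13 and the site opposite ABI3BP, 6 in all, A1-HMW had none.

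**Figure D1:**
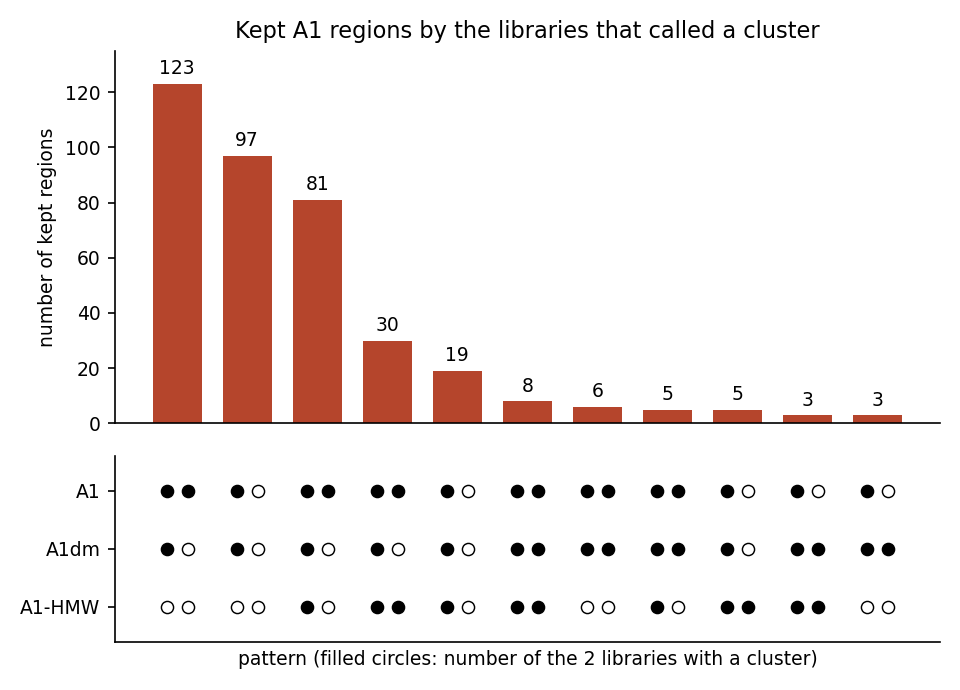
Number of kept regions (bars, upper panel) for each combination of libraries (lower panel), where filled circles give how many of the 2 libraries of A1, A1dm and A1-HMW called a cluster, not which replicate. The commonest combination, with 123 regions, was both A1 libraries, 1 A1dm library and no A1-HMW library, and 8 regions had clusters in all 6 libraries.

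Most members rested on a cluster in only 1 of the A1dm libraries. A1dm replicate 1 accounted for 136 of the 380 regions (35.8%), replicate 2 for 269 (70.8%), and 25 were called in both. A1 clusters were more often called in both libraries: 299 members (78.7%) had a cluster in A1 replicate 1, 334 (87.9%) in replicate 2 and 253 (66.6%) in both, against 3075 of 10194 other regions (30.2%) in both. At the weak end, 97 members had a cluster in 1 A1 library, 1 A1dm library and no A1-HMW library, as the bars by library combination show. Of all A1dm clusters, those on an A1 region were 136 of 232 in replicate 1 (58.6%, 95% Wilson interval 52.2 to 64.8) and 269 of 596 in replicate 2 (45.1%, 41.2 to 49.1). Counting error is all that these and later intervals cover. The lists analyzed give no read numbers, so a library without a cluster cannot be told from one with too few reads.

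The overlap that chose the members was nearly always deep. The 405 A1dm clusters on members shared 8 to 32 nt with the A1 region, with a median of 23 nt, and 274 of them (67.7%) lay wholly inside it. The member nearest the limit was a coding exon of LMNB2, a nuclear lamin, with 8 nt shared, followed by an intron of PHF8, a histone demethylase, with 10 nt. Just outside the rule, 11 other regions had an A1dm cluster within 50 nt on the same strand. The nearest was an exon of the long intergenic noncoding RNA ENSG00000259001 with a gap of 1 nt, and the next a coding exon of ANKRD11 with a gap of 7 nt. This ANKRD11 region, from 89349911 to 89349930, lay beside a member from 89349882 to 89349904. In both cases the A1dm cluster was from replicate 2, which was also the A1dm library that called this ANKRD11 member. The A1dm cluster near the ANKRD11 region may thus be the member's own, which was not tested. That region is not with certainty a separate site that the rule missed.

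Within members, the ends of A1dm and A1 clusters fell on the same bases about as often as those of the A1 replicates did. Among 677 pairs of overlapping A1dm and A1 clusters, 50.2% had the same 5′ end, 66.0% the same 3′ end and 36.8% both. Among 255 pairs of A1 replicate 1 and 2 clusters the shares were 54.1%, 69.4% and 39.2%, and among 359 pairs of A1-HMW and A1 clusters 46.2%, 59.3% and 29.5%. Shared ends were not particular to members. In other regions the shares were 57.6%, 71.1% and 43.2% for 3076 A1 pairs, and 48.1%, 63.9% and 32.1% for 1498 pairs of A1-HMW and A1. The pairs reuse clusters and were not tested. The median offset was 0 nt at both ends in every kind of pair.

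**Figure D2:**
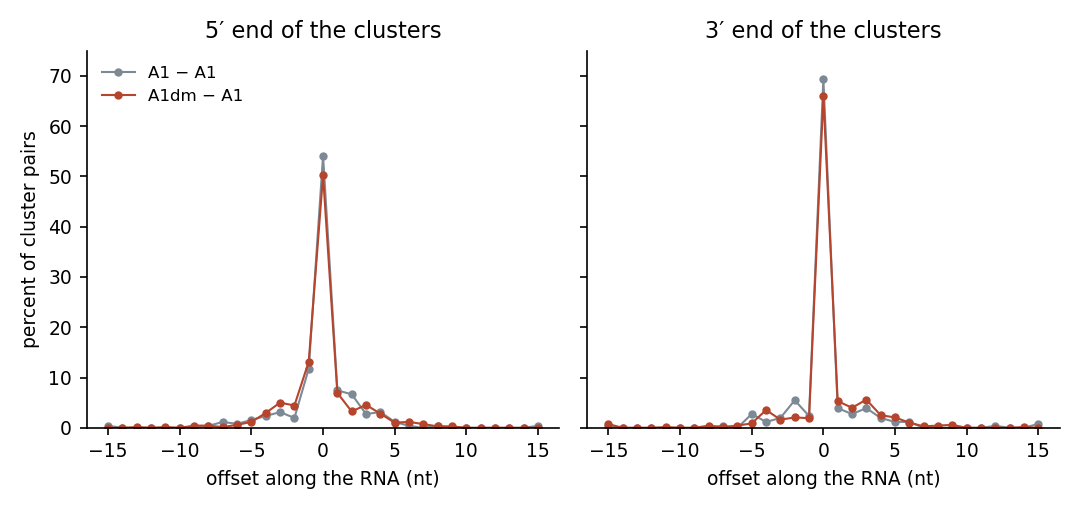
Offset in nucleotides along the RNA between the ends of overlapping clusters in kept regions, as percent of cluster pairs, for A1dm minus A1 (677 pairs) and A1 replicate 2 minus replicate 1 (255 pairs); offsets beyond 15 nt are added to the outermost points. Both curves peak at 0, with 50.2% and 54.1% of pairs at the 5′ end and 66.0% and 69.4% at the 3′ end.

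Region length told kept and other regions apart little. Members had a median length of 25 nt (quartiles 23 and 26, range 17 to 56), and other regions 25 nt (23 and 27, range 12 to 62). The longest member lay in an intron of ENSG00000273269 on chromosome 2. Those of 17 nt were in the U2 pseudogene RNU2-70P, in the 3′ UTR of RWDD2A, at intergenic sites on chromosomes 7 and X, and on an unplaced scaffold. Length is given as a description, since a longer region is more easily overlapped.

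Kept regions were richer in exons of protein-coding genes and poorer in introns than other A1 regions. Of the regions placed in genes or on the mitochondrial genome, 97 of 323 kept regions (30.03%) lay in such exons against 1002 of 7552 others (13.3%), a difference of 16.8 points (95% Newcombe interval 12 to 22.0). Introns held 219 kept regions (67.8%) and 84.5% of the others, a difference of -16.7 points (-22.0 to -11.7). Intergenic sites made up 56 of all 380 kept regions (14.7%) and 25.9% of all others, a difference of -11.2 points (-14.5 to -7.15). Read the other way, 8.83% of A1 regions in exons of protein-coding genes were kept, 3.32% of those in introns and 2.08% of intergenic ones. Both A1 regions on the mitochondrial genome were kept, and 3 members lay in exons of long intergenic noncoding RNAs. With the authors' own HOMER annotation, in which the exon need not lie on the cluster's strand, the exonic difference was 7.36 points. HOMER also has classes apart from exons for sites at transcript ends and starts. Those at ends were 14.5% of all kept and 8.57% of all other regions, and those at starts 12.9% and 9.43%. With intergenic regions in the denominator the intronic difference was -4.95 points and its interval reached 0.

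The exonic excess was carried by each part of the transcript, and most of it by coding sequence. Coding exons held 44 kept regions (13.6% against 4.73%, a difference of 8.90 points, 5.54 to 13.1). For 3′ UTRs there were 26 kept regions (8.05% against 4.24%, 3.81 points, 1.27 to 7.32). The 9 kept regions in 5′ UTRs were 2.79% against 1.38%, with an interval from 0.0643 to 3.84 points that barely left out 0. Noncoding exons of protein-coding genes, which belong to transcripts without a reading frame there, held 18 kept regions (5.57% against 2.93%, 2.65 points, 0.587 to 5.73).

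**Figure D3:**
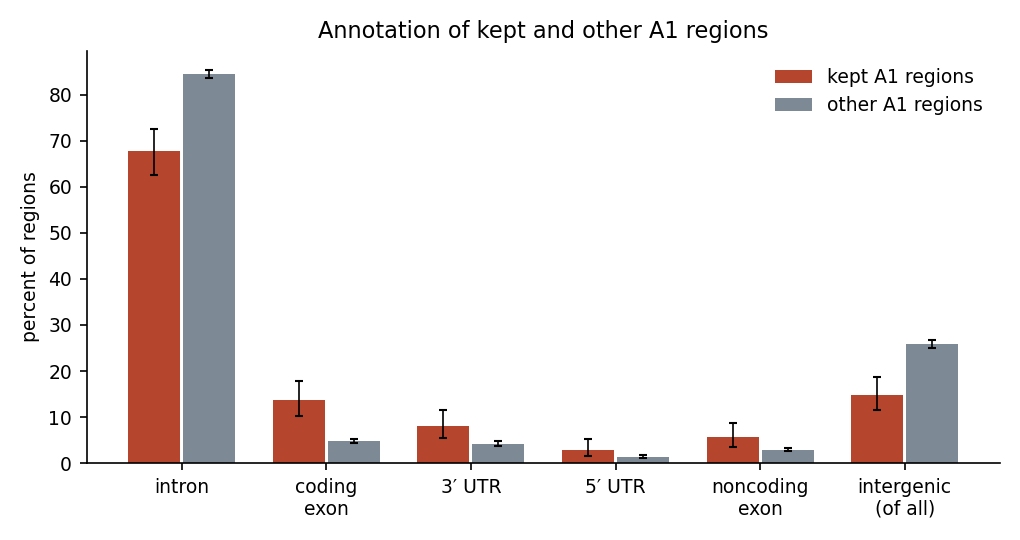
Percent of kept (red) and other (gray) A1 regions in each class of annotation, with 95% Wilson intervals as error bars; intergenic regions are a share of all regions and the other classes a share of regions in genes. Introns held 67.8% of kept and 84.5% of other regions, and coding exons 13.6% and 4.73%.

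The same difference was found with each A1dm library and in reproducible and single A1 sites alike. Against regions kept by neither library, those kept by A1dm replicate 1 were 28.8% exonic and those kept by replicate 2 were 32.0%, or 15.5 and 18.7 points more. Among regions called in both A1 libraries the shares were 31.1% and 14.7%, a difference of 16.4 points (10.4 to 22.9), and among those in 1 A1 library 27.9% and 12.6%. Kept regions also exceeded the sites that only A1-HMW had in common with A1. The 802 A1 regions with an A1-HMW cluster and no A1dm cluster were 15.6% exonic, and kept regions exceeded them by 14.4 points (8.86 to 20.3). Of these 802 regions 17.6% were intergenic, and kept regions differed from them by -2.84 points with an interval of -7.10 to 1.79, which includes 0.

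Recurrence over libraries was not confined to exons: of all 380 members, 92 were called in 4 of the 6 libraries, 38 in 5 and 8 in 6. Of the 97 members in exons of protein-coding genes, 40 were called in at least 4 libraries. These 40 were 18 in coding exons, 12 in 3′ UTRs, 9 in noncoding exons and 1 in a 5′ UTR. In coding exons they included EIF4G1, LARP1, which binds mRNAs of the translation machinery, RBM25 and PNN, which are nuclear splicing-associated proteins, and UPF3B, a factor of nonsense-mediated decay. BAZ1B, a chromatin remodeler subunit, MSH6, a mismatch repair protein, and PPP1R12A, a myosin phosphatase subunit, were also among them, as were HERC1, a ubiquitin ligase, and SPPL2A, an intramembrane protease. In 3′ UTRs they included MCL1, an antiapoptotic protein, CHEK1, a checkpoint kinase, SUPT16H, the histone methyltransferase ASH1L, the kinase MARK3 and STC2, a secreted glycoprotein. The 3′ UTR members also included RWDD2A, whose match to a library adapter is given below. The coding sites are shown because a kept site there is also part of the reading frame.
LARP1, chr5:154172243-154172265, plus strand, coding exon: AGGAGAAAGGAGAAGGGAGtgat
PNN, chr14:39649918-39649938, plus strand, coding exon: AGAGGAAGAGGAAAAGGAAAt
RBM25, chr14:73569899-73569920, plus strand, coding exon: gaaactGGAAGAAGAGAAAGGc
UPF3B, chrX:118968843-118968864, minus strand, coding exon: AGAAAAGAAGGAGGAGAGGAGt
BAZ1B, chr7:72912831-72912858, minus strand, coding exon: gaaagaggatGAAGGAAGGAGAGAGAGt
MSH6, chr2:48026242-48026266, plus strand, coding exon: AAGGAGGAAAAGAGAAGAGAtgagc

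LARP1 and RBM25 had clusters in both A1 libraries, A1-HMW replicate 1 and A1dm replicate 2. PNN and UPF3B were called in both A1 libraries, A1-HMW replicate 2 and A1dm replicate 1. BAZ1B lacked a cluster only in A1dm replicate 1, and MSH6 lacked one there and in A1-HMW replicate 1.

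Within introns, kept regions lay nearer to exons. The median distance to the closest exon of the gene was 1728 nt for 219 kept and 2738 nt for 6380 other intronic regions. Other intronic regions with an A1-HMW cluster lay in between, with a median of 2169 nt (537 regions). In both A1 libraries the medians were 1623 nt for kept and 2339 nt for other regions, and in 1 A1 library 1829 and 3003 nt. Within 300 nt of an exon were 40 kept regions (18.3%) against 11.8% of others, a difference of 6.46 points (1.83 to 12.2). The closest intronic sites in the gene lists below were in KMT2A, a histone methyltransferase, at 55 nt, HELLS, a chromatin remodeler, at 104 nt, and HNRNPDL at 130 nt. Introns of noncoding genes held 6.39% of kept and 11% of other intronic regions, a difference of -4.56 points (-7.23 to -0.446). Intron 1 of a gene held 30.6% and 31.9%, a difference whose interval included 0.

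Kept regions carried an A1-HMW cluster far more often than other A1 regions did. A1-HMW clusters lay on 953 of the 10574 A1 regions, or 9.01%, and the rule for members did not use them. They were present on 151 of 380 kept regions (39.7%) and on 802 of 10194 others (7.87%), a difference of 31.9 points (27.0 to 36.9). Each A1-HMW library showed it: replicate 1 had a cluster on 89 kept regions (23.4% against 3.77%) and replicate 2 on 108 (28.4% against 4.90%). Both had one on 46 kept regions (12.1%) and on 82 others (0.804%).

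Recurrence in A1 moved with this result and left a difference within each stratum. In both A1 libraries 49.0% of 253 kept and 17.6% of 3075 other regions had an A1-HMW cluster, a difference of 31.4 points (25.2 to 37.7). In exactly 1 A1 library the shares were 21.3% of 127 and 3.67% of 7119, a difference of 17.6 points (11.4 to 25.5). By annotation the shares were 40.2% and 10.3% in exons of protein-coding genes, 38.4% and 8.42% in introns, and 44.6% and 5.34% at intergenic sites. Counted from the A1-HMW side, A1dm kept 2.38% of A1 regions without an A1-HMW cluster, 12.7% of those with a cluster in 1 A1-HMW library and 46 of 128 (35.9%) of those in both. The 229 members without any A1-HMW cluster were 60.3% of the total.

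**Figure D4:**
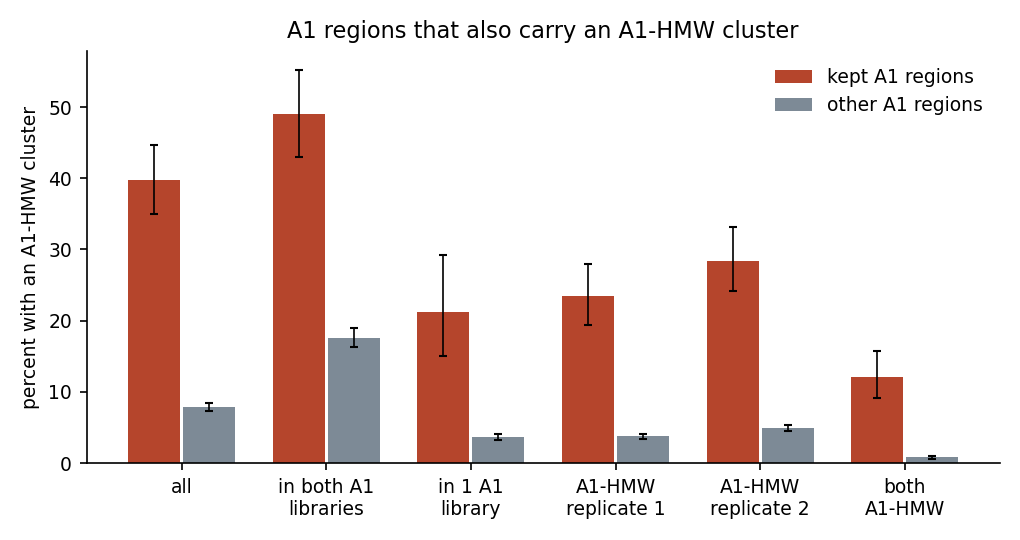
Percent of kept (red) and other (gray) A1 regions with an A1-HMW cluster, with 95% Wilson intervals as error bars, for all regions, by the number of A1 libraries, and for each A1-HMW library alone or both together. Kept regions are higher in every comparison, with 39.7% against 7.87% over all regions.

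Members were purine-rich, as A1 regions were in general, and slightly less often so. A run of at least 12 purines was found in 345 of 377 kept regions with a reference sequence (91.5%) and in 97.1% of 10191 others, a difference of -5.58 points (-8.85 to -3.15). The difference was -2.78 points without A1 replicate 1 and -9.80 points without A1dm replicate 2. The median share of A and G was 91.3% in both sets, and the median longest run was 19 nt in both. For runs of at least 16 purines the difference was -2.14 points, with 0 inside its interval. Over all bases of the members, A made up 45.2%, G 43.0%, C 3.39% and T 8.31%, against 44.5%, 46.0%, 2.47% and 7.04% in other regions. A and G together were on average 95% within 5 nt of the centre of kept regions and 97.4% in others, and fell to 61.5% and 64.2% at 11 to 15 nt. From 16 to 25 nt they were 59.8% and 59.2%, and from 51 to 100 nt 52.7% and 54.4%.

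**Figure D5:**
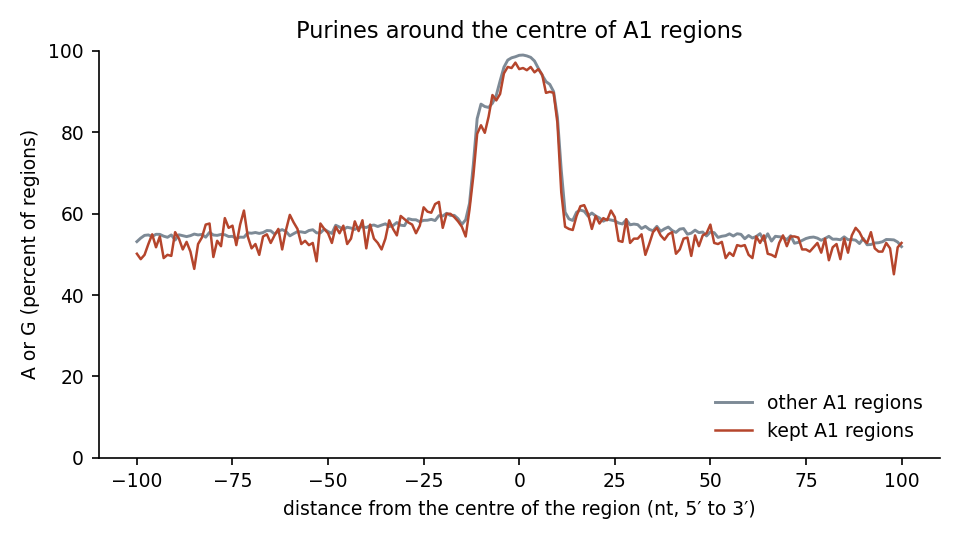
Percent of kept (red, n = 377) and other (gray, n = 10191) A1 regions with A or G at each distance from the centre of the region, in nucleotides along the RNA. Both curves exceed 90% at the centre and are lower in the flanks, with mean values of 52.7% and 54.4% from 51 to 100 nt.

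The leading words of 6 bases in members were common in other regions too. GAGGAA was the most frequent word in members, in 125 (33.2%) against 32.9% of others, a difference of 0.304 points with an interval of -4.35 to 5.29. It was followed by AGGAAG with 32.6% against 32.4%, AAGGAG with 29.97% against 24% and AAAGGA with 29.7% against 22.7%. These words overlap one another. On the opposite strand of the regions the first 2 of these words were not found. Regions this rich in A and G leave little room for them there, so nothing is read from their absence. The core of the motif that hnRNP A1 is known for, TAGGG, was rare: 3 members held it (0.796%) against 260 others (2.55%), a difference of -1.76 points (-2.37 to -0.211). A match of letters is a description and does not locate the contact.

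The shortfall in purine runs came from 32 members without one, and these differed from the rest in where they lay. Of the 32, 15 were intergenic, 10 intronic, 5 in exons of protein-coding genes and 2 in U2 pseudogenes. The annotation holds no transfer RNA genes, so a site in such a gene could be counted as intergenic. Both A1 libraries called 6 of the 32, and 17 had an A1-HMW cluster. Among regions with an A1-HMW cluster, 133 of 150 kept (88.7%) and 788 of 802 others (98.3%) held a run. That was a difference of -9.59 points (-15.7 to -5.29), so few other regions of this kind lacked one. Among intergenic regions 73.2% of kept and 96.5% of others held a run (-23.3 points, -36.1 to -13.4), whereas in exons of protein-coding genes the shares were 94.8% and 95.7% (-0.863 points, -7.31 to 2.40). Of regions in both A1 libraries 97.6% and 99.5% held a run, and of those in 1 A1 library 79.4% and 96.1%. Of all A1 regions without such a run, A1dm kept 32 of 328 (9.76%). Examples are shown because they are not alike. TRIM41 had a run of 11 nt, just under the limit of 12, and 86.4% A or G. In RNU2-70P, RWDD2A and the intergenic site the longest run was 2 to 5 nt.
RNU2-70P, chr1:236431238-236431254, plus strand, U2 pseudogene: ttcAGGAAcggtgcacc
RWDD2A, chr6:83907062-83907078, plus strand, 3′ UTR: ttctacAGtccgatgat
TRIM41, chr5:180651470-180651491, plus strand, coding exon: ggaggaggttGAGGAAGAGGAt
intergenic, chr4:182129503-182129528, plus strand: gtactAAttgctcatgtggctgctgc

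The RWDD2A site was called in 5 of the 6 libraries, all but A1 replicate 1. Of its 17 bases, 16 matched the common 5′ adapter named in the library protocol, and the remaining base was the substitution T14C, counted from 1 at the 5′ end of the region, with the reference base first and the adapter's base last. A T in the reference that is C in the read is the change that PAR-CLIP scores. No other A1 region matched either adapter over at least 15 nt with at most 1 difference. The part of adapter reads in this cluster was not tested.

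Few members had a full-length copy elsewhere in the genome that was exact or differed by C for T only. Copies with other mismatches or gaps were not sought. A search of both strands found an exact copy elsewhere for 1 of 377 kept regions (0.265%) and for 97 of 10126 others (0.958%). A copy that differed only by C at 1 or more of the region's T was found for 10 kept regions (2.65%) and for 1.71% of others, a difference of 0.944 points with an interval of -0.292 to 3.12. Among regions in 1 A1 library the shares were 6.35% and 2.21%, a difference of 4.14 points (1.02 to 9.83). Of those 10 kept regions, 9 were among the 32 without a purine run (28.1%). Other regions without a run had such a copy in 40 of 243 cases (16.5%). The difference was 11.7 points with an interval of -1.92 to 29.4, which includes 0. Among the 9 were RNU2-70P and the intergenic site chr14:69775730-69775750, the latter with 8 such copies, 2 of them on an unplaced scaffold. Reads of U2 and its pseudogenes cannot be told apart with certainty, so RNU2-70P and RNU2-59P are uncertain as sources.

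The members in genes were spread widely. The 321 kept regions in genes fell in 307 genes, out of 4738 genes with any A1 region. No gene held more than 2, and 14 held 2. FYN, a Src family kinase, had 13 A1 regions, of which 2 in intron 2 were kept, 36468 nt apart, the first by A1dm replicate 2 and the other by replicate 1. FAF1, a ubiquitin-binding protein, had 2 of 10 kept, and ANKRD11, a chromatin regulator, 2 of 7. In CDC23, an anaphase-promoting complex subunit, FANCI, a Fanconi anemia protein, and STC2, both A1 regions of the gene were kept. For 132 genes the only A1 region was a kept one, while 172 genes had kept and other regions side by side.

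Gene families were counted against the 4.08% of A1 regions in genes that were kept, a share fixed by the rule from which nothing is read. Among hnRNPs and related RNA binding proteins, 5 of 45 A1 regions were kept (11.1%), in FUBP1, HNRNPDL, EWSR1, HNRNPM and HNRNPR. Those in HNRNPM and HNRNPR lay in coding exons, and FUBP1 had clusters in all libraries but A1dm replicate 1. SR proteins, the splicing activators, had 6 A1 regions and none kept. Core spliceosome proteins had 1 of 29 kept, in SNRPD3, and translation factors 1 of 24, in EIF4G1.

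Chromatin genes made up the lists with most A1 regions. Remodelers and histone chaperones had 7 of 79 regions kept (8.86%), in SUPT16H, BAZ1B, CHD1, CHD2, ANP32E, ARID1B and HELLS. Histone modifying enzymes had 6 of 72 kept (8.33%), with 2 each in ASH1L and KMT2C and 1 each in KMT2A and PHF8. The ASH1L sites lay in the 3′ UTR and in intron 2, both with clusters in both A1 libraries, A1-HMW replicate 2 and A1dm replicate 2. Kinases of the Src, DYRK, CDK and MAP kinase families had 5 of 51 kept, in DYRK1A, FYN, MAP2K1 and MAPK14. Cullin ligases and deubiquitinases had 3 of 36, in CUL3, UCHL5 and USP37, and kinesins 2 of 28, in KIF14 and KIF1B.

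The remaining families were small. Cytosolic ribosomal proteins had 2 of 9 regions kept, in RPLP2 and RPSA, and stress response genes 2 of 8, in HSP90AA1 and ATF3. Nuclear long noncoding RNAs had 1 of 17, and small structural RNAs 2 of 2, both U2 pseudogenes. Of genes known as hnRNP A1 targets, 4 had 5 A1 regions, and the kept one lay in intron 1 of PKM, the pyruvate kinase gene whose mutually exclusive exons hnRNP A1 regulates, 341 nt from the nearest exon. ATF3, a stress-induced transcription factor, had a single A1 region, in a coding exon, called in A1 replicate 1 and in both A1dm libraries but in neither A1-HMW library. AGFG1 had 2 A1 regions and none kept, and no A1 region lay in HNRNPA1 itself.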

How the data were processed

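The 6 PAR-CLIP libraries were grouped by their titles into A1, A1-HMW and A1dm. Per the study's methods, the authors took off adapters with BBduk, dropped very short reads, set aside ribosomal RNA and used STAR for mapping. Bowtie and hg19 are the aligner and build in the submitters' processing notes. The deposited files listed wavClusteR clusters, 1 list per library, annotated by HOMER, and the score in the deposited lists was 0 throughout, so these lists give no read depth. Versions of these tools are not given in the sources used here. The authors' table of PARalyzer clusters, which has read numbers, was not used here.

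Cluster starts were set 1 nt below the listed start, which matched the cluster identifiers. Regions were placed by strand in GENCODE 44 genes lifted to GRCh37, exons before introns, and read from the GRCh37 genome. Intergenic regions were left out of denominators within genes. The annotation holds no transfer RNA genes. Mitochondrial regions were given no gene or sequence. Shares were compared by their difference with a 95% Newcombe interval, called where it left out 0. Regions are not replicates, so no p-value was computed, and values were repeated for each library. Copies were sought over the whole genome by a seed of 16 nt in which C was read as T, so 65 shorter regions were left out there. Scripts used Python 3.11.15 and were tested on simulated data.

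The members, the 14 gene lists and the rule for named genes were chosen with earlier results of these data known. Names were drawn from members in both A1 and both A1dm libraries, genes with most members and up to 4 genes per list. For lists of 5 to 7 all are given. Further sources were exonic members in at least 4 libraries, the longest and shortest members and genes named in the study. Members without a purine run in both A1 or both A1dm libraries were a last source. Not every member of these sets is named. The site chr14:69775730-69775750 and LMNB2 were added after their values were seen. One member in all 6 libraries is not reported here by name or sequence. Start, overlap, recurrence, annotation, denominator, run length, left-out libraries and replicate numbers were varied.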

Additional observations from a re-analysis of the deposited data

How the results depend on the processing

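The lists analyzed give no reads, so absence of a cluster cannot be told from too few reads, and each group had 2 libraries. Of 128 values recomputed under an alternative, 115 kept their direction and their side of 0, or moved little. The number of members was 253 with A1 regions in both A1 libraries, 25 when both A1dm libraries were required, and 136 to 334 when 1 library was left out. The lowest, 136, came without A1dm replicate 2.

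The A1-HMW difference ranged from 17.6 to 55.1 points and the exonic difference from 7.36, with the authors' HOMER annotation, to 31.1 when both A1dm libraries were required, and neither lost its call. Without A1-HMW replicate 1 or replicate 2 the A1-HMW difference was 23.5 or 19.7 points. The intergenic difference was -5.50 points (-16.7 to 13.6) when both A1dm libraries were required, with 25 members, and -7.09 with HOMER. The intronic difference was -4.95 points with intergenic regions in the denominator, where its interval included 0. The purine run difference was -2.14 points for runs of 16, with 0 inside the interval, 0.507 in regions over 30 nt, of which 17 were kept, and -9.80 to -2.78 with 1 library left out. The GAGGAA difference, which was never called, turned to -0.391 with starts as listed, -1.95 in both A1 libraries and -1.69 in 1, and ran from -6.63 to 4.04 with 1 library left out. The causes were not tested.

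Of these 128 values, 25 came from alternatives chosen after seeing the data. Without clusters on unplaced scaffolds 379 members were left, without regions that have a copy elsewhere or an adapter match 369, and without regions that lack a purine run 345. Under the last 2 of these the A1-HMW difference was 31.4 and 30.6 points and the exonic difference 16.8 and 17.2.

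The labels number replicates alike in every group without saying that a number marks a shared batch. A replicate block, in which regions were built from libraries of the same number and the differences averaged over both numbers, was also added after seeing the data. It gave 21.7 points for A1-HMW (17.2 to 27.02), 17.1 for exons of protein-coding genes, -17.9 for introns, -10.2 for intergenic sites, -4.74 for purine runs and -2.36 for GAGGAA (-7.11 to 3.15). Within replicate 2 alone the purine run difference was -2.12 points (-5.77 to 0.144). With A1 and A1dm clusters of the same number on the region, 334 members were left. A1dm replicate 1 shared 113 regions with A1 replicate 1 and 115 with A1 replicate 2, and A1dm replicate 2 shared 209 and 240.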
